A study of Mus musculus with 16 samples.

Results

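The genes described here are 10 genes of ER-phagy and ER shape, taken from a list of gene names and not by their values: the ER-phagy receptors Retreg1, Rtn3, Sec62, Ccpg1, Tex264 and Calcoco1, and the ER-shaping genes Reep5, Reep1, Atl1 and Spast. All 10 were among the 55404 genes measured, and all 10 passed the limit on low values that left 23244 genes for testing. RNA of whole brain was sequenced from untreated male mice at 5 months of age, 8 of genotype Tecpr2 ki/ki and 8 of genotype wt/wt, each mouse giving its own library. Tecpr2 ki/ki mice are homozygous for a knock-in of the L1152fs frameshift, made by CRISPR/Cas9 editing of C57BL/6J zygotes, and both alleles are unedited in wt/wt mice. TECPR2 is a protein linked to autophagy and membrane trafficking, and its loss in people causes a hereditary sensory and autonomic neuropathy. The comparison asks whether the mRNA of these genes differed between brains with and without the mutation.

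The endoplasmic reticulum (ER) is a network of sheets and tubules that reaches along axons. Hairpin proteins such as reticulons and REEPs bend its membrane into tubules, atlastins fuse the tubules and spastin cuts the microtubules that guide them. In ER-phagy, receptors in the ER membrane or bound to it carry a motif that binds LC3 or GABARAP proteins on autophagosomes, so that pieces of ER are enclosed and delivered to lysosomes. Mutations of REEP1, ATL1 and SPAST cause hereditary spastic paraplegia, and mutations of RETREG1, also called FAM134B, cause a sensory and autonomic neuropathy.

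Values are linear normalized values per gene, which the authors rounded to whole numbers, and the reads on genes behind them were estimated at 9.23 to 15.39 megareads per mouse (median 12.06 in Tecpr2 ki/ki and 13.13 in wt/wt mice). The mutated gene itself separated the genotypes: Tecpr2 had values of 274 to 320 (median 298.5) in Tecpr2 ki/ki and 928 to 1002 (median 968.5) in wt/wt mice, a difference of −68.8% (95% interval −70.3 to −67.2%, limma, adjusted p = 2.16e-47). Defining markers of neurons, astrocytes, microglia, oligodendrocytes, their precursors and endothelial cells were all above 0 in every mouse, as whole brain tissue holds all of these cells. Differences are given on the scale log2(value + 1) with the standard error (SE), or as the percent change that they correspond to, and p-values are from limma with Benjamini-Hochberg adjustment over all 23244 genes.

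None of the 10 genes passed limma's test for a difference between the genotypes. At an adjusted p under 0.1 the count was 0 of 10, beside 0.133% of all genes tested, and at an unadjusted p under 0.01 it was 0 of 10, beside 1.56% of all genes tested. At the latter threshold 362 genes passed, so that a list of 10 genes with no member called is near the background. An unadjusted p under 0.05 was likewise reached by 0 of the 10, beside 1413 of all 23244 genes, by limma's test and by 0 of the 10 by the exact permutation test, the smallest being 0.0611 and 0.0640, both for Retreg1. The 95% intervals of all 10 genes included 0, and their width differed between the genes. The narrowest, of Rtn3, ran from −3.64 to 0.375%, and the widest, of Ccpg1, from −14.4 to 6.08%.

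The means of 8 of the 10 genes were lower in Tecpr2 ki/ki mice, with a median log2 difference of −0.03 over the 10. Among all genes tested 50.5% were lower, and among the 11241 genes with a mean value of at least 100, to which all 10 belong, 54.8% were lower. With libraries scaled to the same total, and likewise after quantile normalization, 7 of the 10 were lower, because Spast changed sign. The median over the 10 was −0.0237 with the former scaling and −0.0142 with the latter, against −0.0277 with the values as deposited.

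**Figure D1:**
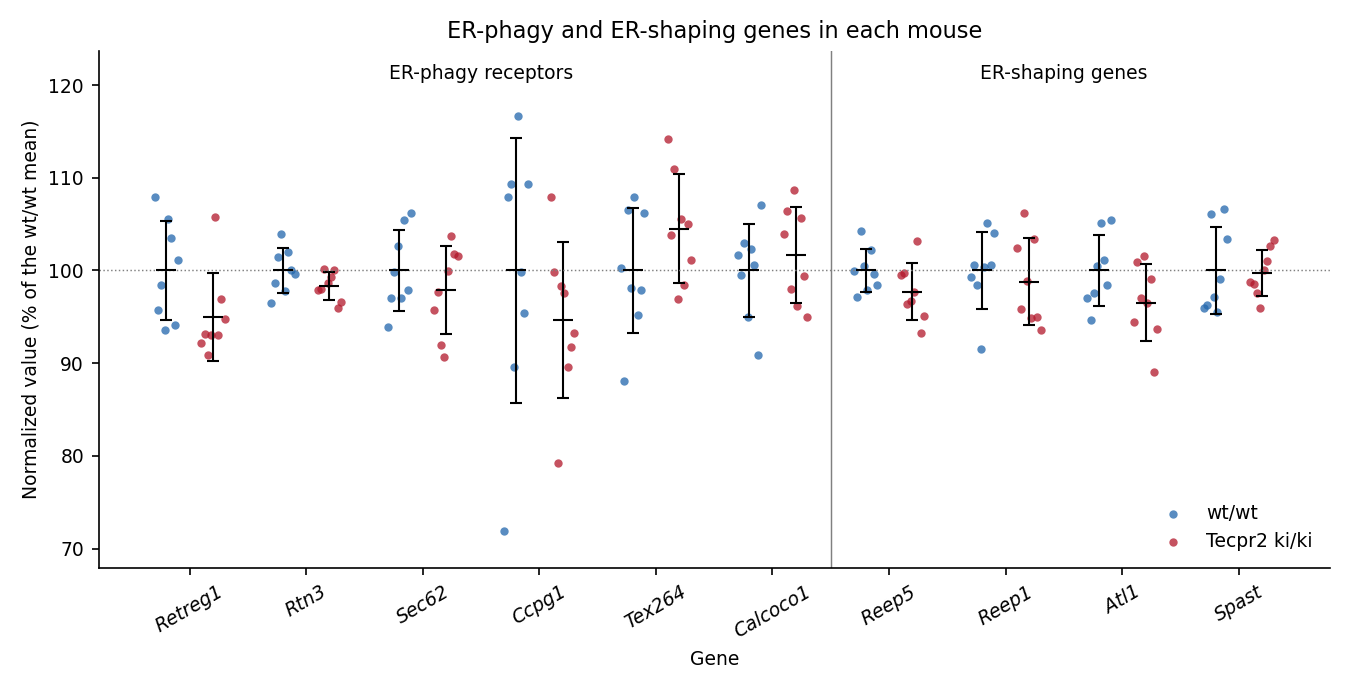
Normalized value of each gene in each mouse, as a percent of the wt/wt mean of that gene (the vertical axis does not start at 0). Points are mice (8 per genotype), black bars the mean and SD; the genotypes overlap in every gene, Ccpg1 spreads most, and 1 Tecpr2 ki/ki mouse stands above the other 7 in Retreg1.

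Retreg1, the ER-phagy receptor of ER sheets and a sensory neuropathy gene, had the smallest p of the 10 genes. It lies on chromosome 15 (GRCm38 25843180 to 25973687, plus strand). Its values were 469 to 546 (median 480.5) in Tecpr2 ki/ki and 483 to 557 (median 515) in wt/wt mice. The groups overlapped, with 7 of 8 Tecpr2 ki/ki mice below the wt/wt median and 5 of 8 below every wt/wt mouse. The means of 490.1 ± 24.4 and 516.1 ± 27.8 (SD, n = 8 each) differed by −0.07 on the log2 scale (SE 0.04), or −5.01% (95% interval −9.98 to 0.246%), with an adjusted p of 0.850 in limma. The exact two-sided permutation test over all 12870 splits of the mice gave p = 0.0640. The value of 546 belonged to Tecpr2 ki/ki mouse 5, which stood above the other 7 mice of its genotype. Without this mouse the log2 difference was −0.10, with an adjusted p of 0.687 in limma and p = 0.00886 in the exact permutation test. The gene then passed 0.01 by the latter test, unadjusted, but not by limma's. Without wt/wt mouse 1 the log2 difference was −0.06 and the exact permutation p was 0.123, the largest with a mouse left out. These exact tests with a mouse left out were added after the data were seen.

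RefSeq lists 4 transcript starts for Retreg1 in GRCm38.p6, and the gene-level values pool the transcripts from all of them. Of these starts, 2 have a match to a motif searched below, and the windows of the others have none. Factors of the cAMP and of the lysosomal and autophagy programmes, among others, are known to read such letters. The stretches upstream of the 2 starts with a match are shown. Capitals mark the match to a cAMP response element (CRE, TGACGTCA) in the former and to an E-box (CACGTG) in the latter, and neither stretch holds a base of an annotated exon. The former ends where the annotated gene begins, and the latter lies within the gene.
Retreg1, upstream of the first start, chr15:25843048-25843179, plus strand: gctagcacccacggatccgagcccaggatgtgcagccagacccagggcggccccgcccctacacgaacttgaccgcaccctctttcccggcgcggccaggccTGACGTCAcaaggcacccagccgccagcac
Retreg1, upstream of the last start, chr15:25942429-25942678, plus strand: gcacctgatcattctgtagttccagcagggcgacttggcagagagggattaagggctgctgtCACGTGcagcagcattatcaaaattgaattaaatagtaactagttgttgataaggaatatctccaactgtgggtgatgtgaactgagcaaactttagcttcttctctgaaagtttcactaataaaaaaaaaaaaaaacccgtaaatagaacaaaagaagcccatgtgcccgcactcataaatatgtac
Counted from the RefSeq transcript start, the CRE begins at position −148 and the E-box at position −188. The start used for the CRE lies within the annotated gene, past the end of the stretch shown, which was cut before the first annotated exon. Both motifs were searched on both strands in windows from 250 bases before to 50 bases after each start, of which RefSeq gave 13 for 9 of the 10 genes and 32851 in all. The E-box was in 7.15% of all windows and, among the 10 genes, also in that of Sec62, at position −32. The CRE was in 1.79% of all windows and, of the 10 genes, in that of Retreg1. Motifs of the unfolded protein response were searched in the same way: UPRE (TGACGTGG, 0.676% of windows), ERSE-I (0.119%), ERSE-II (0.0365%) and an ATF4 site (TGATGNAAT, 0.965%) had no match in these windows of the 10 genes. A match describes the letters and not a binding site, and these RNA data do not measure binding.

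Rtn3, a reticulon whose long isoforms act as the ER-phagy receptor of ER tubules, had the highest values of the list. Its values were 8251 to 8612 (median 8454) in Tecpr2 ki/ki and 8301 to 8940 (median 8584) in wt/wt mice, with 1 Tecpr2 ki/ki mouse below every wt/wt mouse. The log2 difference was −0.02 (SE 0.01, adjusted p = 0.883, exact permutation p = 0.122). The gene lies on chromosome 19 (7425901 to 7483281, minus strand), and its value sums the long isoforms and the short ones that lack the receptor part, so that a shift between them would not be seen. After quantile normalization the log2 difference of Rtn3 was −0.01 (adjusted p = 0.980).

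Sec62, a part of the protein translocation machinery that also serves as receptor when the ER recovers from stress, had values of 1350 to 1544 (median 1472) in Tecpr2 ki/ki and 1399 to 1581 (median 1472.5) in wt/wt mice. The medians were nearly equal, 4 of 8 Tecpr2 ki/ki mice lay below the wt/wt median, and the log2 difference was −0.03 (SE 0.03, adjusted p = 0.917, exact permutation p = 0.362). Sec62 lies on chromosome 3 (30792875 to 30821263, plus strand), where an antisense gene with a mean value of 0.81 covers 11.7% of its exon bases.

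Ccpg1, a receptor whose expression is known to follow ER stress, had the lowest values and the widest spread: 108 to 147 (median 130.0) in Tecpr2 ki/ki and 98 to 159 (median 141.5) in wt/wt mice. The wt/wt range enclosed that of the Tecpr2 ki/ki mice, although 7 of these 8 lay below the wt/wt median. The log2 difference was −0.07 (SE 0.08, adjusted p = 0.937, exact permutation p = 0.463). Without wt/wt mouse 1, the lowest of all, it was −0.13 with an exact permutation p of 0.0704. Without Tecpr2 ki/ki mouse 3, the lowest of its genotype, it was −0.03 with an exact permutation p of 0.738. Its value is the least certain of the 10. Ccpg1 lies on chromosome 9 (72985429 to 73016340, plus strand). It shares 42.9% of its exon bases with a readthrough gene on the same strand that is listed at 0 in the mean. It also shares 28.9% with Pigb on the opposite strand, which had a mean value of 533.8.

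Tex264, a receptor known to carry a large part of ER-phagy during starvation, was 1 of the 2 genes with a higher mean in Tecpr2 ki/ki mice. Its values were 326 to 384 (median 351) in Tecpr2 ki/ki and 296 to 363 (median 333.5) in wt/wt mice, and 2 Tecpr2 ki/ki mice lay above every wt/wt mouse. The log2 difference was 0.06 (SE 0.05, adjusted p = 0.902, exact permutation p = 0.177), or 4.55% (95% interval −1.93 to 11.5%). Tex264 lies on chromosome 9 (106658746 to 106685927, minus strand).

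Calcoco1, a soluble receptor that binds the ER through VAP proteins, was the other gene with a higher mean. It had values of 625 to 715 (median 669) in Tecpr2 ki/ki and 598 to 704 (median 665.5) in wt/wt mice, with 4 of 8 Tecpr2 ki/ki mice on each side of the wt/wt median. The log2 difference was 0.02 (SE 0.04, adjusted p = 0.964, exact permutation p = 0.520), and the gene lies on chromosome 15 (102706777 to 102722178, minus strand).

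Reep5, an ER-shaping hairpin protein, had the highest values after Rtn3 among the listed genes. Values ran from 2972 to 3286 (median 3096.5) in Tecpr2 ki/ki and from 3094 to 3321 (median 3180) in wt/wt mice. Of the 8 Tecpr2 ki/ki mice, 4 lay below every wt/wt mouse and 7 below the wt/wt median, and the highest lay within the wt/wt range. The means of 3113 ± 97.8 and 3186 ± 74.7 (SD, n = 8 each) differed by −0.03 on the log2 scale (SE 0.02), or −2.32% (95% interval −5.01 to 0.456%), with an adjusted p of 0.877 in limma. The exact two-sided permutation test gave p = 0.111. Without Tecpr2 ki/ki mouse 6 the log2 difference was −0.05 (adjusted p = 0.782, exact permutation p = 0.0225). Without Tecpr2 ki/ki mouse 7 it was −0.02 (exact permutation p = 0.214, the largest with a mouse left out). After quantile normalization it was −0.02 (adjusted p = 0.933). Reep5 lies on chromosome 18 (34344885 to 34374070, minus strand).

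Reep1, a relative of Reep5 and a spastic paraplegia gene, had values of 1018 to 1155 (median 1059.5) in Tecpr2 ki/ki and 996 to 1144 (median 1093.5) in wt/wt mice. The Tecpr2 ki/ki mice spanned nearly the whole wt/wt range, and 1 lay above it. The log2 difference was −0.02 (SE 0.03, adjusted p = 0.968, exact permutation p = 0.576). Reep1 lies on chromosome 6 (71707561 to 71810710, plus strand).

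Atl1, the atlastin of neurons, which fuses ER tubules, had values of 960 to 1095 (median 1043.5) in Tecpr2 ki/ki and 1021 to 1137 (median 1073) in wt/wt mice. Of the 8 Tecpr2 ki/ki mice, 3 lay below every wt/wt mouse and 6 below the wt/wt median. The log2 difference was −0.05 (SE 0.03, adjusted p = 0.877, exact permutation p = 0.104). Atl1 lies on chromosome 12 (69892614 to 69966417, plus strand). Of its exon bases 14.6% are shared with Sav1 (mean value 137.6) and 5.97% with Map4k5 (mean value 653), both on the opposite strand. The libraries were stranded, but whether strand was used in the counting is not given in the sources used here, and without it reads of genes that overlap on opposite strands cannot be told apart.

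Spast, which encodes the microtubule-severing enzyme spastin, had the smallest estimated difference of the 10 genes. Its values were 686 to 738 (median 710.5) in Tecpr2 ki/ki and 683 to 762 (median 701) in wt/wt mice, so that all 8 Tecpr2 ki/ki mice fell inside the wt/wt range. The means of 713 ± 18.0 and 715 ± 33.2 (SD, n = 8 each) were within 1 SD of each other, with a percent change of −0.214 (95% interval −4.63 to 4.41%, adjusted p = 0.995, exact permutation p = 0.910). Spast lies on chromosome 17 (74338987 to 74391115, plus strand).

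**Figure D2:**
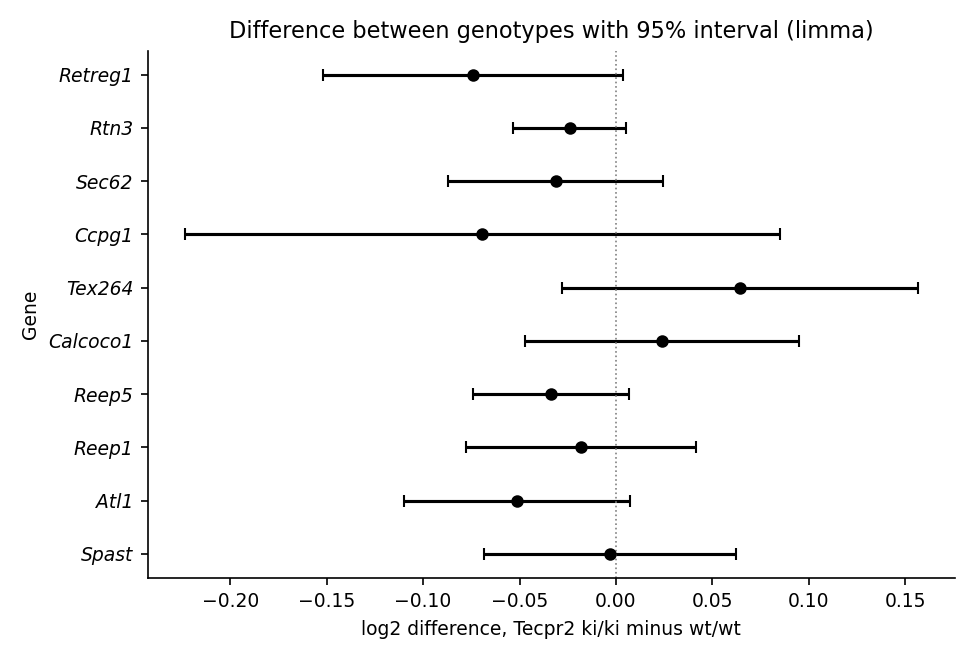
The log2 difference of each gene, Tecpr2 ki/ki minus wt/wt, on the scale log2(value + 1), with bars for limma's 95% interval (8 mice per genotype). All 10 intervals include 0, and the estimates run from −0.07 for Retreg1 to 0.06 for Tex264.

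The levels of the 10 genes per kilobase of exon, which allow a rough comparison of genes, spanned a wide range. Rtn3 was highest with 1698 ± 36.4 per kb (SD over 16 mice), followed by Reep5 with 1000 ± 29.3, Sec62 with 339 ± 15.6 and Reep1 with 263 ± 11.4. Between neighbours down to Retreg1, the ranges over the 16 mice did not overlap, with ratios, averaged over the mice, of 1.70, 2.95, 1.29 and 2.17. Retreg1, Tex264, Spast, Calcoco1 and Atl1 followed with means of 121.5 to 115.5 per kb, and among these 5 genes the ranges of neighbours overlapped, so that their order is not set by these data. Ccpg1 was lowest with 17.7 ± 2.12 per kb, and Atl1 exceeded it 6.62-fold as the mean of the ratios within each mouse, with no overlap. Of the genes tested that have an annotated exon length, 99.4% had a lower level per kb than Rtn3 and 98.9% a lower one than Reep5. For Ccpg1 this share was 34.3%. These lengths count every annotated exon base of a gene in GRCm38, so that a gene used mainly as a short transcript appears lower. For Ccpg1 they include the 42.9% of exon bases shared with the readthrough gene, where reads may not have been counted. The level of Ccpg1, its ratio to Atl1 and its rank may therefore be too low, which was not tested.

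**Figure D3:**
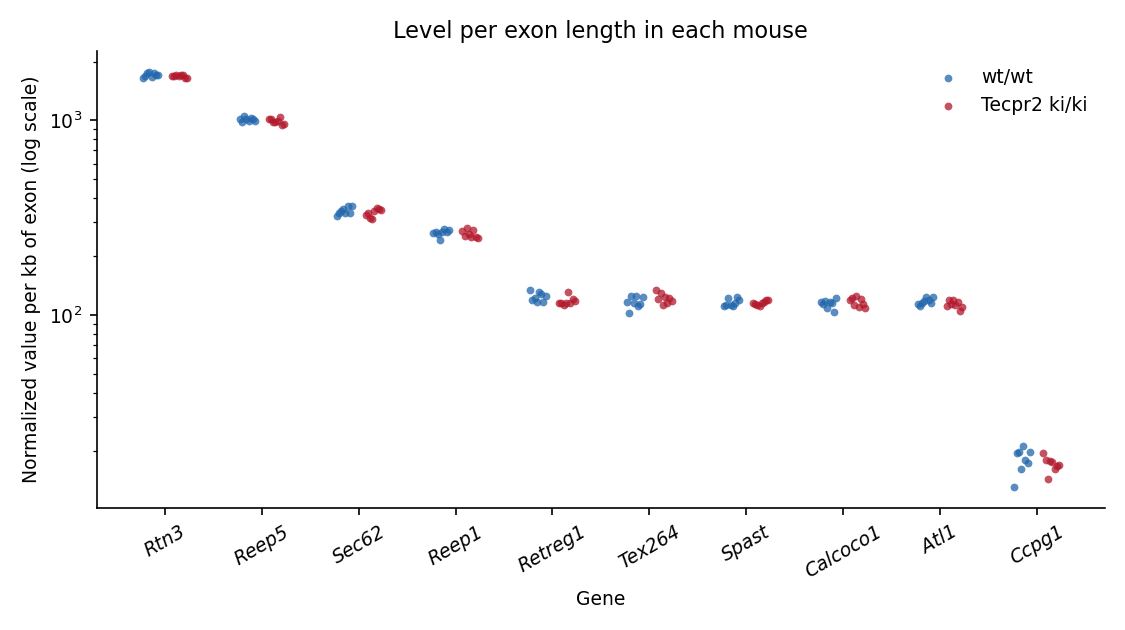
Level of each gene in each of the 16 mice, as normalized value per kilobase of exon on a log scale, in falling order of the mean. Rtn3 and Reep5 lie above the rest without overlap, 5 genes from Retreg1 to Atl1 lie side by side between 115.5 and 121.5 in the mean, and Ccpg1 lies lowest; the 2 genotypes overlap in each gene.

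From mouse to mouse the 10 genes did not move as 1 group. After the mean of each genotype was subtracted, the 45 pairs of genes had Pearson correlations of −0.41 to 0.54 over the 16 mice (median 0.11), and 31 were positive. For 3 pairs the permutation p was under 0.05, and for 0 of the 45 pairs was the adjusted p under 0.05 by Pearson's r or by Spearman's rho. The highest r was that of the hairpin proteins Reep5 and Rtn3, with r = 0.54 (permutation p = 0.0284, adjusted p = 0.726) and rho = 0.59 (permutation p = 0.0163, adjusted p = 0.329). It was 0.61 within the Tecpr2 ki/ki and 0.55 within the wt/wt mice, and 0.43 without the 2 mice farthest from the median of Reep5. Spast and Sec62 had r = 0.51 (permutation p = 0.0484, adjusted p = 0.726) and rho = 0.65 (permutation p = 0.00775, adjusted p = 0.329), with r = 0.90 within the Tecpr2 ki/ki and 0.31 within the wt/wt mice. Atl1 and Calcoco1 had r = 0.50 (permutation p = 0.0483, adjusted p = 0.726) and rho = 0.58 (permutation p = 0.0219, adjusted p = 0.329), with r = 0.62 within the Tecpr2 ki/ki and 0.37 within the wt/wt mice. Without the 2 mice farthest from the median of Spast or of Atl1, r was 0.78 and 0.59 for these 2 pairs.

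Among the 11241 genes with a mean value of at least 100, those most like Reep5 over the 16 mice, by Pearson's r with the genotype mean subtracted, were Spry2 (r = 0.85), Rab6a (r = 0.83) and Gstp2 (r = 0.82). Those most like Retreg1 were Pfn2 (r = 0.82), Gm13889 (r = 0.80) and Cstf3 (r = 0.79). These are the highest of many values over few mice that share library and depth, and they are given as a description.

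Other genes of the same pathways were counted in the same way. For these lists the background in limma is 0.133% of all genes tested at an adjusted p under 0.1. It is 1.56% at an unadjusted p under 0.01, and 1413 of 23244 genes at an unadjusted p under 0.05. Of all genes tested 50.5% were lower. The exact permutation test was not run over all genes, so that its counts and p-values have no such background. Of 16 other ER-phagy genes, which hold further receptors and the UFMylation enzymes that act on the ER, 0 passed either threshold and 11 were lower (median log2 difference −0.02). The differences ran from −0.07 for Ddrgk1, the ER adaptor of UFMylation (adjusted p = 0.902), to 0.05 for Retreg3, a relative of Retreg1 (adjusted p = 0.911), and an unadjusted p under 0.05 was reached by 0 of the 16 in limma and 1 in the exact permutation test. Of 20 other ER-shaping genes 0 passed either threshold and 15 were lower (median −0.02), from −0.12 for Reep6 (adjusted p = 0.934) to 0.09 for Reep4 (adjusted p = 0.963). In limma 1 of the 20 had an unadjusted p under 0.05, the neuronal reticulon Rtn1, named after its values were seen. Its means were 7093 ± 94.5 in Tecpr2 ki/ki and 7286 ± 168 in wt/wt mice (SD, n = 8 each), a log2 difference of −0.04 (adjusted p = 0.668, exact permutation p = 0.00948), and 4 of 8 Tecpr2 ki/ki mice lay below every wt/wt mouse. An unadjusted p under 0.01 was reached by 1 of these 20 without the filter on low values, and with single mice left out by 1 or 2, namely 1 without mouse 3 or 6 of Tecpr2 ki/ki or mouse 2 of wt/wt, and 2 without mouse 7 of wt/wt.

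Of 38 other spastic paraplegia genes 18 were lower (median log2 difference 0.00), 2 had an unadjusted p under 0.01 and 0 an adjusted p under 0.1. An unadjusted p under 0.05 was reached by 4 in limma, beside 1413 of all 23244 genes, and by 3 in the exact permutation test. Without the filter on low values 1 of the 38 had an unadjusted p under 0.01 in limma, Spart being lost, and without trend and robust 0 did. Spart, which encodes spartin, a protein of lipid droplets and endosomes, was higher by 0.10 on the log2 scale, with means of 562 ± 26.2 in Tecpr2 ki/ki and 523.5 ± 28.3 in wt/wt mice (SD, n = 8 each, adjusted p = 0.614, exact permutation p = 0.0141). Its unadjusted p was under 0.01 in 5 of the 16 fits that left out a mouse and at or above it without any of mice 1, 3, 5, 6 and 7 of Tecpr2 ki/ki or mice 1, 2, 4, 5, 6 and 8 of wt/wt. Slc33a1, the acetyl-CoA transporter of the ER membrane, was lower by 0.17, with means of 226 ± 21.8 and 254 ± 20.4 (SD, n = 8 each, adjusted p = 0.513, exact permutation p = 0.0228). Its p was under 0.01 in 12 of those 16 fits and at or above it without any of mice 3 and 7 of Tecpr2 ki/ki or mice 2 and 5 of wt/wt. Nt5c2, a cytosolic nucleotidase named after its values were seen, had the smallest exact permutation p of the list (0.000311) and an adjusted p of 0.762 in limma. Its means were 995 ± 19.3 and 952 ± 17.1 (SD, n = 8 each), a log2 difference of 0.06, and 7 of 8 Tecpr2 ki/ki mice lay above every wt/wt mouse. The highest estimate of the list was 0.16 for Cyp7b1, an oxysterol hydroxylase (adjusted p = 0.874).

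Of 10 other sensory neuropathy genes tested (Scn11a of the 11 listed did not pass the limit on low values) 4 were lower (median log2 difference 0.01), 1 had an unadjusted p under 0.01 and 0 an adjusted p under 0.1. This was Sptlc2, a subunit of the serine palmitoyltransferase of the ER that starts sphingolipid synthesis. It was lower by 0.11, with means of 442 ± 15.9 in Tecpr2 ki/ki and 477.5 ± 20.5 in wt/wt mice (SD, n = 8 each, adjusted p = 0.532, exact permutation p = 0.000932), and 6 of 8 Tecpr2 ki/ki mice lay below every wt/wt mouse. Its p was under 0.01 in 11 of the 16 fits that left out a mouse and at or above it without any of mice 2 and 4 of Tecpr2 ki/ki or mice 3, 4 and 7 of wt/wt. In limma and in the exact permutation test 2 of the 10 had an unadjusted p under 0.05, the other being Dst, which encodes the cytoskeletal linker dystonin and was named after its values were seen. It was higher by 0.03 on the log2 scale (adjusted p = 0.641, exact permutation p = 0.00497), with 5 of 8 Tecpr2 ki/ki mice above every wt/wt mouse. Without the filter on low values, with libraries scaled to the same total, and without mouse 3 of Tecpr2 ki/ki or mouse 2 of wt/wt, 2 of the 10 had an unadjusted p under 0.01 in limma, and without mouse 4 of Tecpr2 ki/ki or mouse 3 or 4 of wt/wt 0 did.

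**Figure D4:**
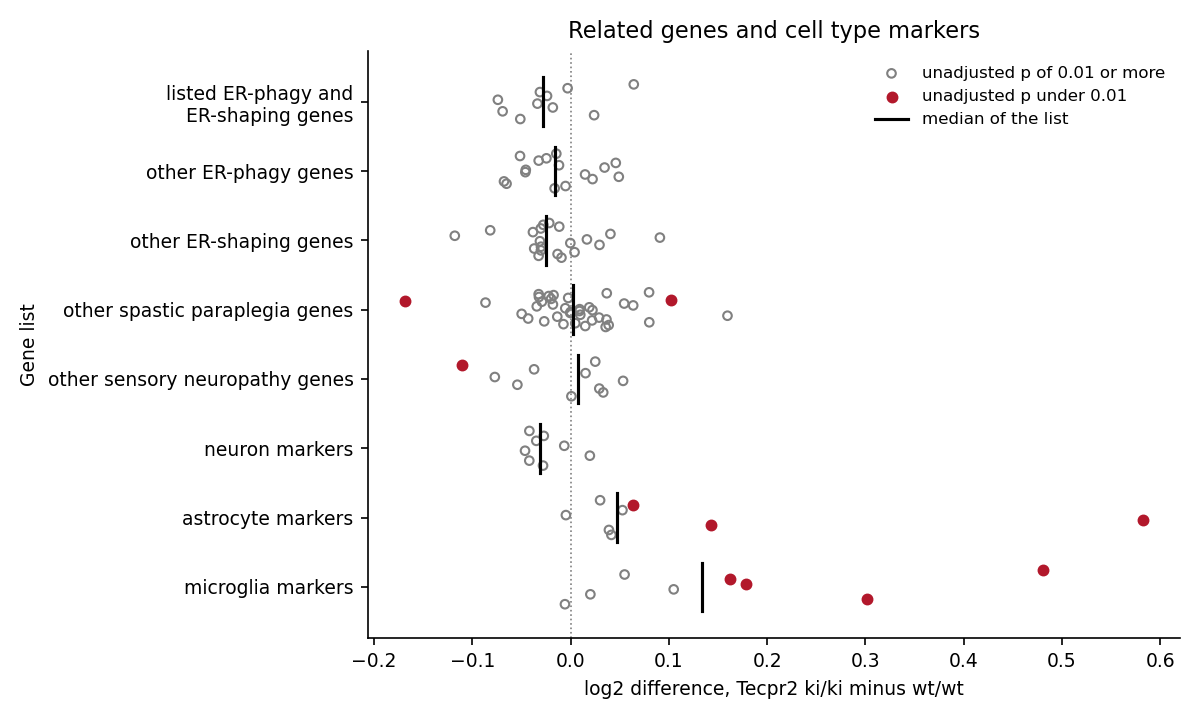
The log2 difference of each gene, Tecpr2 ki/ki minus wt/wt, for the 10 listed genes, 4 lists of related genes and 3 lists of cell type markers, with a black line at the median of each list. Filled points have an unadjusted p under 0.01: 0 of the 10 listed genes, 3 genes of the related lists, 3 astrocyte and 4 microglia markers.

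Some markers of astrocytes and microglia were higher in Tecpr2 ki/ki mice. Of 8 astrocyte markers 3 were higher at an adjusted p under 0.1 (Gfap by 0.58, Aqp4 by 0.14 and Slc1a2 by 0.06 on the log2 scale), and of 8 microglia markers 4 had an unadjusted p under 0.01, all higher (among them Trem2 by 0.48, C1qa by 0.30 and P2ry12 by 0.16), of which Trem2 and C1qa passed the adjusted threshold. The summed values of the astrocyte markers were 64561 to 66937 in Tecpr2 ki/ki and 60925 to 64330 in wt/wt mice. Most of these sums was Slc1a2, with means of 45610 in Tecpr2 ki/ki and 43648 in wt/wt mice, and 1 of the 8 astrocyte markers was lower. The summed values of the microglia markers were 2185 to 2366 in Tecpr2 ki/ki and 1981 to 2190 in wt/wt mice. Of 8 neuron markers 7 were lower (median log2 difference −0.0315, and −0.0225 after quantile normalization) and 0 passed either threshold, though 2 had an unadjusted p under 0.05 in limma and 1 in the exact permutation test, with summed values of 57521 to 60033 (median 58465) in Tecpr2 ki/ki and 57499 to 61703 (median 59844) in wt/wt mice. Oligodendrocyte, precursor and endothelial markers had 0 genes past either threshold, with 5 of 8, 2 of 5 and 4 of 5 lower (median log2 differences −0.0187, 0.00809 and −0.0166) and 0, 1 and 0 with an unadjusted p under 0.05 in limma (0 of each in the exact permutation test). In whole tissue, fewer cells of a type and less RNA per cell cannot be told apart, and the part of cell makeup in the values of the 10 genes was not tested.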

How the data were processed

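Per the labels and the methods of the study, total RNA of whole brain (8 mice per genotype) was depleted of ribosomal RNA, made into stranded libraries, trimmed with Trim Galore 0.6.10 and cutadapt 3.4, aligned to GRCm39 with STAR 2.7.10b, counted per gene with summarizeOverlaps and tested by the authors with DESeq2 1.40.2. The authors deposited a score per gene and mouse, a linear normalized value rounded to a whole number, and how it was normalized is not given in the sources used here, so that no count test was run. Totals were 11964284 to 12252324 per mouse. The reads behind them were estimated from the gaps that scaling leaves among low whole numbers. The median squared difference between 2 libraries was 1.23 to 2.49 times that of counting noise at equal depth (120 pairs). Depth differed between mice, so that these ratios do not tell whether a pair was within counting noise.

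Tested genes had a summed value above 16 and values above 5 in 4 or more mice of either genotype. The test was limma 3.58.1 (R 4.3.3, trend and robust, genotype only) on log2(value + 1), checked on simulated data, with Benjamini-Hochberg adjustment. Exact permutation tests (smallest p 0.000155) and 100000 resamples for correlations used numpy 2.4.6, with ranks and the adjustment over pairs from scipy 1.17.1. Fold changes on this scale understate changes of low genes. Symbols, positions and exon lengths are from the GENCODE annotation of GRCm38, not the build of the alignment (52017 of 55404 genes matched); Spart matched by an older symbol. Promoters are from RefSeq (GRCm38.p6). The named genes were the 10 listed, Tecpr2, genes of the related lists with an unadjusted p under 0.01 or the highest and lowest estimate, markers under 0.01, and the 3 genes most like Reep5 and Retreg1; some genes under this rule are not reported here. The listed genes and the gene lists were chosen with earlier results of these data known. Alternatives were the pseudocount (0.1), no filter, other scalings, other variance settings, a replicate block and each mouse left out.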

Additional observations from a re-analysis of the deposited data

Results flagged for a closer look

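Retreg1 in Tecpr2 ki/ki mouse 5 had a value of 546, whose gap to the next mouse was 0.597 of the whole range of its genotype, above Dixon's 95% critical value for 8 samples. It was 1 of 22 groups of values examined (the 10 genes and Tecpr2 in both genotypes), and chance alone exceeds this limit in about 1 of 20 groups.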

How the results depend on the processing

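The count of the 10 genes past either threshold was 0 under all 22 alternatives (6 settings and 16 mice left out in turn), and 213 of 220 single values kept their direction. The other 7 were of Spast, whose log2 difference was 0.00083 with libraries scaled to the same total and 0.00179 after quantile normalization, and −0.01226 to 0.01027 with single mice left out. These scalings moved the median of all genes by 0.00387 and −0.000408. In exact permutation tests with a mouse left out, which were added after seeing the data, an unadjusted p under 0.05 was reached by 3 of the 10 genes: Retreg1 without Tecpr2 ki/ki mouse 5 (p = 0.00886), wt/wt mouse 4 (p = 0.0359) or wt/wt mouse 7 (p = 0.0399), Reep5 without Tecpr2 ki/ki mouse 6 (p = 0.0225) and Rtn3 without wt/wt mouse 1 (p = 0.0401). In limma with a mouse left out these 3 genes and Atl1 (without mouse 4 of Tecpr2 ki/ki or mouse 2 of wt/wt) were under 0.05 unadjusted, and Retreg1 also without wt/wt mouse 2. Of all genes, 31 had an adjusted p under 0.1, with 20 without the filter on low values, 16 without trend and robust, and 25 to 40 with single mice left out. The labels do not say whether the replicate numbers pair the mice. After the mean of each genotype was subtracted from the log2 values, same-numbered mice correlated at −0.0501 to 0.152. This was over the 11241 genes with a mean value of at least 100. Of the 8 pairs 1 was over 0.1, and 2 of 8 Tecpr2 ki/ki mice correlated best with the wt/wt mouse of their own number. Such correlations cannot exclude a pairing by litter or batch. With the replicate block 46 genes passed the adjusted threshold, none of them among the 10, and 2 of the other sensory neuropathy genes had an unadjusted p under 0.01. Low values limit the precision for Ccpg1 most of the 10, and a change in a small brain region or a shift between isoforms would be diluted in gene values of whole brain.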
